A study of Homo sapiens with 8 samples.

Results

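The subunits of the mitochondrial respiratory chain and of ATP synthase were examined in Caco-2, an established line from a human colorectal adenocarcinoma, with and without Siglec-XII. Members were taken from the 63816 entries of the expression table by symbol: NDUFA followed by a digit, NDUFAB1, NDUFB, NDUFC, NDUFS, NDUFV, SDHA to SDHD, UQCR, COX followed by a digit, ATP5, and the MT- symbols for ND, CO, ATP and CYB. Of 294 matching entries, 163 named as pseudogenes were left out, which gave 131 members with 117 symbols. These comprised all 13 subunits encoded by the mitochondrial genome and 96 entries for 86 nuclear subunits, 45 of them entries of complex I, 4 of complex II, 10 of complex III, 19 of complex IV and 18 of complex V. The remaining 22 entries share the names without being subunits: 10 assembly factors, 7 antisense or divergent transcripts, 3 entries of other factors (ATP5S and both entries of ATP5IF1) and 2 readthrough transcripts. Both groups were stably transfected, selected with G418 and grown as 4 samples each, with pcDNA3.1 alone (Empty vector) or with pcDNA3.1 carrying full-length human SIGLEC12 (Siglec-XII). The transfection and the selection were done separately for each group, and so any effect of Siglec-XII cannot be told apart from other differences that arose between the 2 populations. The series text speaks of fewer cultures than samples and the methods of technical replicate libraries, so the p-values measure the spread between these samples, which may be technical.

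Complexes I to IV pass electrons from NADH and succinate to oxygen and pump protons across the inner mitochondrial membrane (complex II passes electrons without pumping), and complex V, the ATP synthase, uses the proton gradient to make ATP. Complexes I, III, IV and V are built from proteins of both genomes, whereas complex II is wholly nuclear. The mitochondrial genome is read as long polycistronic RNAs from both strands that are cut at the tRNAs between the genes, and 2 of the resulting mRNAs each carry a pair of overlapping reading frames.

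The level of SIGLEC12 on the log2 scale averaged 0.11 ± 0.05 in the Empty vector samples and 10.70 ± 0.06 in the Siglec-XII samples (SD, n = 4). The table holds log2 of TPM plus 1, where TPM is the share of a transcript after scaling by its length, in units that sum to 1e+06 per sample, and no read counts, so the depth behind each value is unknown. Of 16 colon epithelium markers, 6 passed the filter on low values, namely KRT8, KRT18, EPCAM, CDH1, CDX1 and CDX2. The summed level of the list was 7451 to 8445 TPM in the Empty vector samples and 8963 to 9274 TPM in the Siglec-XII samples. Most of it came from KRT8 (11.83 to 12.22 on the log2 scale) and KRT18 (11.42 to 11.82). The defining markers VIL1, CDH17, LGALS4, HNF4A and GPA33 did not exceed 1.23 on the log2 scale in any sample, and KRT20, SI and FABP1 were listed at 0. Of 12 trophoblast markers, 10 passed, including GATA3 (8.37 to 8.91) and XAGE3 (10.12 to 10.27), with sums of 2770 to 2856 and 2755 to 2841 TPM. Among the 10, CGA (0.17 to 1.23) and ERVW-1 (1.05 to 1.37) were low. CGB3 and CGB5 did not pass, with highest values of 0.30 and 0.17. Of 7 fibroblast markers, 5 passed, with sums of 70.7 to 86.8 and 83.2 to 89.1 TPM. No cell type was assigned from these lists, and their part in the results was not tested. In such bulk samples fewer cells with a transcript and less of it per cell cannot be told apart.

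The 2 overlaps in the mitochondrial genome matter for the levels below, because a read inside an overlap belongs to both genes. They are printed from the GRCh37 reference, whose mitochondrial sequence has 16569 bases, on the plus strand, with the shared bases in capitals and 20 bases on each side. MT-ATP8 (chrM:8366-8572) and MT-ATP6 (chrM:8527-9207) share 46 bases within chrM:8507-8592, and MT-ND4L (chrM:10470-10766) and MT-ND4 (chrM:10760-12137) share 7 bases within chrM:10740-10786.
MT-ATP8 and MT-ATP6: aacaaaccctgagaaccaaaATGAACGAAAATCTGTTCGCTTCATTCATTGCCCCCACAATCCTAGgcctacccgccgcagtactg
MT-ND4L and MT-ND4: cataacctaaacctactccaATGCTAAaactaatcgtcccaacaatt
In both, the start codon ATG of the downstream frame opens the shared bases.

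Nuclear subunits have no such common template, and what their promoters share was looked at in RefSeq sequence of GRCh38.p14 (250 bases before to 50 after the start), which had an entry for 69 of the 86 nuclear subunit symbols. Motifs of 3 factors known to act on these genes were searched on both strands: GCGCA, any base and GCGC in direct succession for NRF1, CCGGAAG for the ETS factor GABP, and AAGATGG directly followed by CGGC for YY1. The end of the ETS motif can overlap the start of the YY1 motif by AAG. NRF1 motifs were in 17 promoters (24.64%, against 5.78% of all 35116 promoters), ETS motifs in 20 (28.99% against 10.26%) and YY1 motifs in 4 (5.80% against 0.85%). At least 1 of these motifs was in 35 of the 69 (50.72%), against 15.49% of all promoters. The comparison took every listed promoter, whether or not its gene was expressed here, so it cannot show that the excess is particular to these subunits. The 150 bases upstream of UQCR11, the subunit with the largest positive fold change among those with an unadjusted p under 0.05, and of SDHA, the flavoprotein subunit of complex II, are printed as examples with the matches in capitals, at chr19:1605463-1605612 on the minus strand and chr5:218170-218319 on the plus strand.
UQCR11: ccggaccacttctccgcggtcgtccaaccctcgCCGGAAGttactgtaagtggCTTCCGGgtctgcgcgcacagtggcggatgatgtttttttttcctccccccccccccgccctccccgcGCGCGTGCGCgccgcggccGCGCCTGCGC
SDHA: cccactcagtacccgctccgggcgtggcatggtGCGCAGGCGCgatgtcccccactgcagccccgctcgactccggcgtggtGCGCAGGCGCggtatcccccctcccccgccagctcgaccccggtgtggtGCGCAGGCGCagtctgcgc
The UQCR11 stretch holds an ETS motif on each strand followed by a pair of NRF1 motifs, and the SDHA stretch holds 3 NRF1 motifs. The same stretch was also drawn up for NDUFA8 and NDUFS4, where it held no complete match, and is not printed. Each of those promoters had at least 1 match in its full sequence. A match describes these letters only and is neither a shown binding site nor a cause of any level.

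The levels of the members spanned a wide range, and the genome that encodes a subunit was the main divide. The 13 mitochondrially encoded subunits had a median level of 12.48 on the log2 scale, and took 9.65%, 7.28%, 8.34% and 6.93% of all TPM in the Empty vector samples and 7.51%, 8.79%, 7.06% and 5.75% in the Siglec-XII samples. The groups overlapped, at 8.05% ± 1.22 and 7.28% ± 1.25 (SD, n = 4). All nuclear subunits together took 1.65% ± 0.10 and 1.62% ± 0.06 (SD, n = 4). The ratio of the mitochondrially encoded to the nuclear sum was 6.17, 4.56, 5.06 and 3.87 with the Empty vector and 4.75, 5.53, 4.38 and 3.36 with Siglec-XII, so that the samples of each group differed from one another by more than the group means, which were 4.92 and 4.50.

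Among the mitochondrially encoded subunits the order of levels was similar in every sample. MT-ATP8, a small subunit of ATP synthase with a gene of only 207 bases, was the most abundant of all entries in each of the 8 samples, at 14.47, 13.84, 14.29 and 13.76 with the Empty vector and 13.94, 14.23, 13.90 and 13.48 with Siglec-XII on the log2 scale. MT-CO3, a core subunit of cytochrome c oxidase, ranked 2 in each sample, and MT-CO2, which takes electrons from cytochrome c, ranked 3 or 4. At the other end stood MT-ND5, a proton-pumping subunit of complex I, which ranked between 91 and 154 with a level of 10.41 ± 0.23 and 10.19 ± 0.25 (SD, n = 4). MT-ND6, the only one of the 13 read from the other strand, was at 10.99 ± 0.34 and 10.70 ± 0.27, and MT-CYB, the cytochrome of complex III, at 11.27 ± 0.14 and 11.16 ± 0.23.

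The overlapping pairs differed in how closely their levels matched. MT-ND4L and MT-ND4, which share an mRNA, differed by a mean of 0.02 ± 0.10 and 0.02 ± 0.09 (SD, n = 4) on the log2 scale in the Empty vector and Siglec-XII samples. MT-ATP8 stood 1.39 ± 0.13 and 1.32 ± 0.07 (SD, n = 4) above MT-ATP6 on the same scale, although the 2 also share an mRNA. The length given to so short a gene and the reads in the 46 shared bases bear on this TPM value, and their part was not tested.

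**Figure D1:**
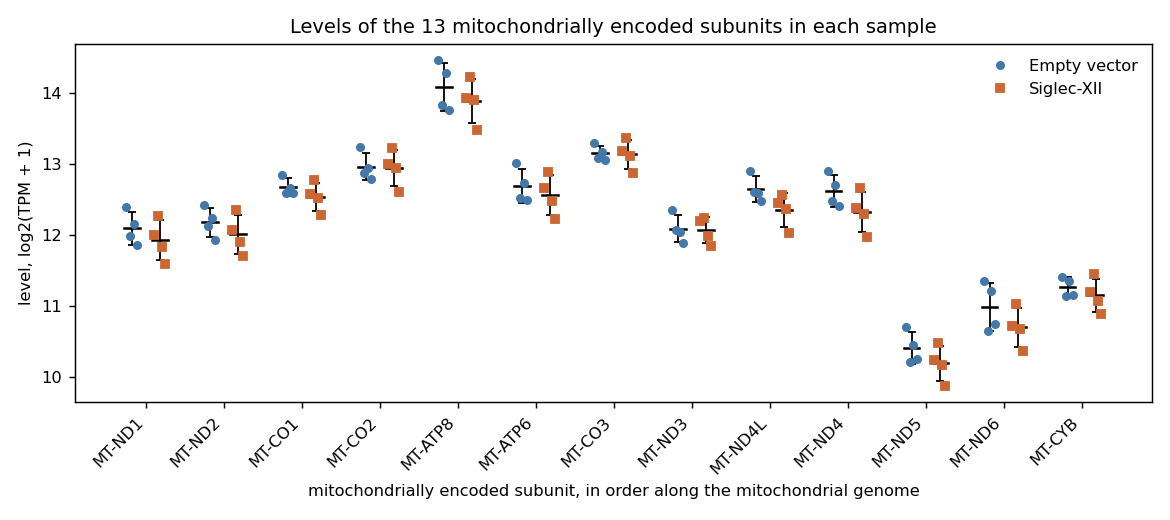
Level of each mitochondrially encoded subunit in log2(TPM + 1) (vertical axis) against the 13 genes in their order along the mitochondrial genome, with circles for the 4 Empty vector and squares for the 4 Siglec-XII samples, and a line and bar for the mean ± SD of each group. MT-ATP8 is highest and MT-ND5 lowest in both groups, and the groups overlap for all 13 genes.

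Whether Siglec-XII went with other levels of these genes was asked by limma over the 15590 entries with at least 1 TPM in at least 4 samples, of which 116 were members. None of the 116 had an adjusted p under 0.05, against 0.648% of all entries tested. The lowest adjusted p of a member was 0.136, and none passed in any of the 21 alternatives, where the lowest was 0.0869. At an unadjusted p under 0.05 there were 16 members (13.8%), 7 higher and 9 lower with Siglec-XII, against 16.5% of all entries, 13.9% higher and 2.61% lower. The groups did not overlap for 6 members (5.2%), against 10.8% of all entries, with 3 members higher (9.17% of all entries) and 3 lower (1.68%). The median log2 fold change was -0.02 over the members and 0.07 over all entries, and 68 of the 116 were below 0 (58.6%, against 31.9%).

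All 13 mitochondrially encoded subunits had a log2 fold change below 0, with a median of -0.17 and a range from -0.29 to -0.02, yet the groups overlapped for each of them and the lowest adjusted p was 0.287. Their samples moved together: Empty vector 1 was the highest of its group for 13 of 13 genes and Siglec-XII 2 for 13 of 13, Siglec-XII 4 was the lowest for 13 of 13, and the lowest Empty vector sample was number 4 for 9 genes and number 2 for 4. The median was -0.07 without Empty vector 1, -0.06 without Siglec-XII 4 and -0.28 without Siglec-XII 2. After quantile normalization it was -0.06.

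By complex, the median log2 fold change of the mitochondrially encoded subunits was -0.22 for the 7 of complex I, -0.11 for MT-CYB of complex III, -0.02 for the 3 of complex IV and -0.16 for the 2 of complex V. The complexes overlapped, with MT-ND3 of complex I at -0.02 and MT-CO1 of complex IV at -0.14. MT-ND4L, a membrane subunit of complex I, was the only one with an unadjusted p under 0.05, at 12.90, 12.61, 12.60 and 12.47 with the Empty vector and 12.46, 12.56, 12.37 and 12.03 with Siglec-XII. Siglec-XII 2 lay above Empty vector 4 for this gene, so the groups overlapped, and the log2 fold change was -0.29 ± 0.12 (SE; limma adjusted p = 0.287). MT-ND4 was at 12.90, 12.48, 12.70 and 12.41 and at 12.38, 12.67, 12.30 and 11.98, with a log2 fold change of -0.29 ± 0.15 (SE) and an unadjusted p above 0.05. MT-CO2 was at 13.24, 12.88, 12.95 and 12.80 and at 13.01, 13.23, 12.95 and 12.61, with a fold change of -0.02 ± 0.13 (SE).

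Since the 13 shared a shift from sample to sample, each was also read against the mean of the 13 in its own sample, a measure chosen after the values were seen and given without a test. MT-CO2 lay 0.67, 0.71, 0.59 and 0.68 above that mean in the Empty vector samples and 0.80, 0.80, 0.85 and 0.78 above it in the Siglec-XII samples. MT-ND4 lay 0.34, 0.31, 0.35 and 0.30 above it and 0.17, 0.24, 0.20 and 0.15 above it. For these 2 of the 13 the groups did not overlap. Values against a shared mean fall on both sides of it by construction, and for other entries the same subtraction adds the swing of the 13, so the 2.17% of all entries separated in this way is not a comparable share and nothing is read from it. MT-CO2 minus MT-ND4 was 0.33, 0.40, 0.25 and 0.38 with the Empty vector and 0.63, 0.56, 0.65 and 0.63 with Siglec-XII. That these do not overlap follows from the 2 separations above and adds nothing to them. Only a few chosen pairs of the 13 were compared, so the pairs below have no share over all pairs beside them. MT-CO3 minus MT-ND4 was also separated, at 0.53 ± 0.12 and 0.81 ± 0.08 (SD, n = 4), while MT-ND3 minus MT-ND4 overlapped, at -0.53 ± 0.11 and -0.26 ± 0.14.

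**Figure D2:**
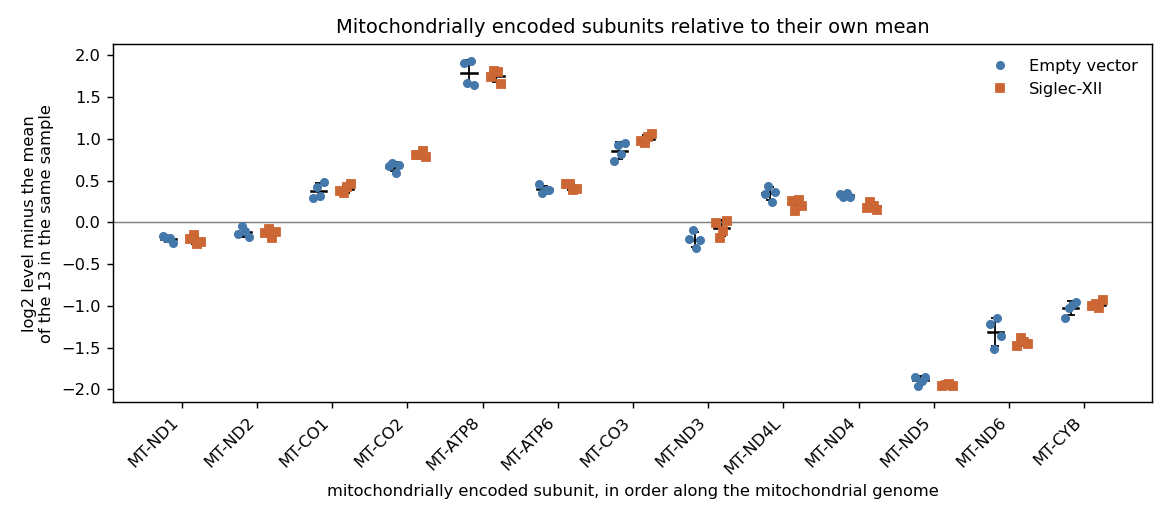
Log2 level of each mitochondrially encoded subunit minus the mean of the 13 in the same sample (vertical axis) against the genes in genome order, with circles for Empty vector and squares for Siglec-XII samples and a line and bar for the mean ± SD. MT-CO2 lies higher and MT-ND4 lower with Siglec-XII without overlap between the groups, and the other 11 overlap.

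The rRNAs of the mitochondrial ribosome, which are no members but are read from the same strand as all of the mRNAs except MT-ND6, stood apart from the mRNAs. MT-RNR1, the rRNA of the small subunit (chrM:648-1601), was at 10.76, 10.78, 10.61 and 10.55 with the Empty vector and 9.94, 9.92, 9.95 and 9.72 with Siglec-XII, and MT-RNR2, that of the large subunit (chrM:1671-3229), at 12.44, 12.30, 12.16 and 11.98 and at 11.49, 11.61, 11.48 and 11.20. For both, every Siglec-XII sample lay below every Empty vector sample. MT-RNR1 fell by 0.79 ± 0.07 (SE) on the log2 scale (limma adjusted p = 0.000587) and passed the threshold in 19 of 19 alternatives. MT-RNR2 fell by 0.78 ± 0.11 (SE; limma adjusted p = 0.0165) and passed in 14 of 19, with a highest adjusted p of 0.118 where no filter on low values was used. Their sum went from 0.645% ± 0.076 to 0.374% ± 0.039 of TPM (SD, n = 4). The labels describe a library kit that removes rRNA and the methods a kit for mRNA, and the part of rRNA removal or of poly(A) selection in these values was not tested.

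Copies of mitochondrial sequence in the nuclear genome limit the mitochondrially encoded levels, because reads can be divided between a gene and its copy. Of the stretches of 31 bases in MT-CO1, 66.7% also occur in the transcript of another gene, and the share was 63.8% for MT-ATP6, 56.9% for MT-ND2 and 50.5% for MT-CO2, but 3.48% for MT-ND3 and 4.95% for MT-CYB. Of the copies, MTATP6P1 was the highest, at 9.69 on the log2 scale over all samples (843 TPM), with a log2 fold change of -0.23 and a limma adjusted p of 0.580. MTND2P28 was at 6.28, and the other 6 such entries tested were at or below 4.86.

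The nuclear subunits varied by complex in level more than between the groups. Per transcript length, the median level on the log2 scale was 6.21 for the 45 tested entries of complex I, 7.15 for the 4 of complex II, 6.60 for the 9 of complex III, 8.33 for the 11 of complex IV and 7.89 for the 17 of complex V. The 45 entries of complex I stand for 37 symbols, and a symbol split over several entries, such as NDUFA6, counts once per entry. The median log2 fold changes of complexes I to V were -0.02, 0.12, 0.09, -0.02 and -0.02, beside 0.07 over all entries. UQCRC2 counts with 2 identical entries in complex III, and with the entries of a symbol summed, an alternative added after the data were seen, the median of complex III was 0.04 and that of complex I 0.00. The 86 tested nuclear subunit entries split into 40 above and 46 below 0, with 4 at an unadjusted p under 0.05 in each direction, while 31.9% of all entries were below 0, 13.9% were higher at that limit and 2.61% lower. All 4 subunits of complex II were above 0 (0.02 to 0.15), whereas each of the other complexes had members on both sides.

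**Figure D3:**
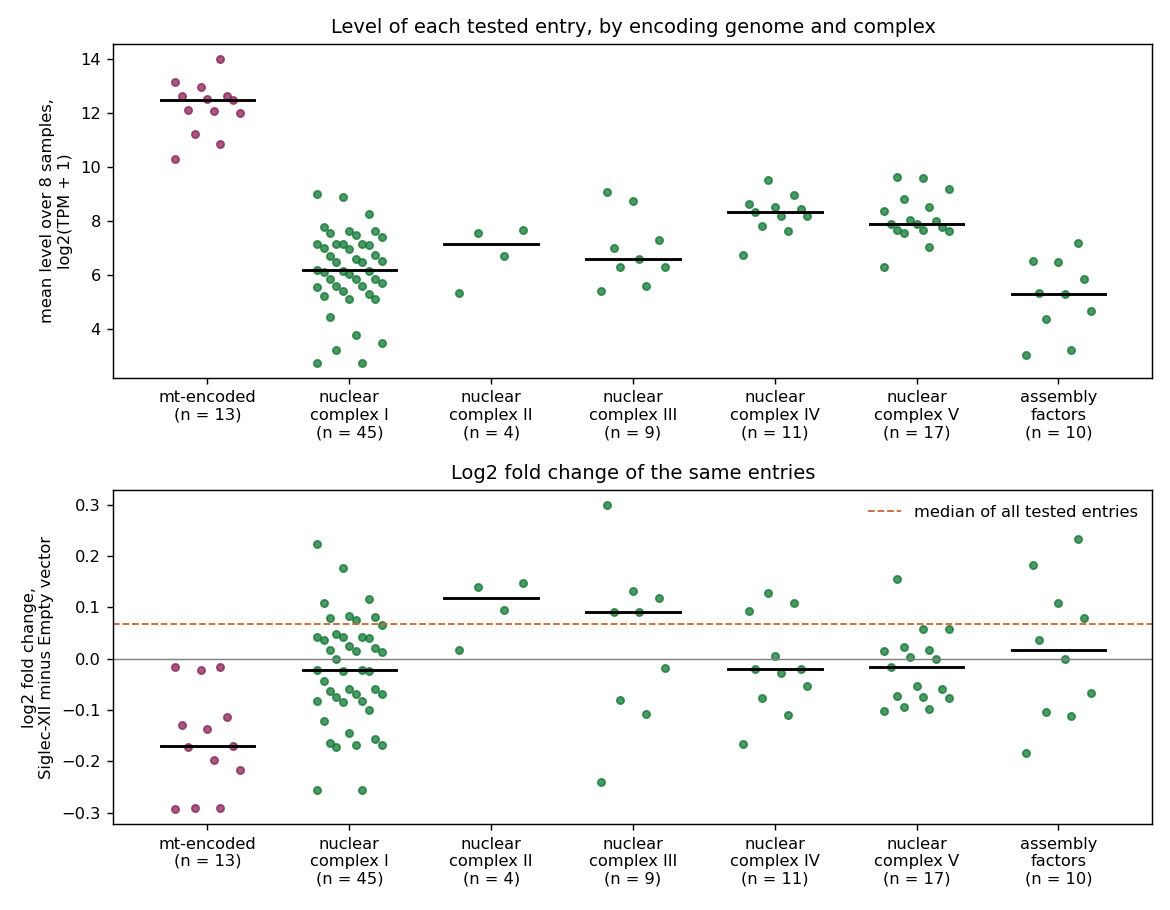
Each point is 1 tested entry, grouped by encoding genome and complex, with the mean level over 8 samples in log2(TPM + 1) (upper panel) or the log2 fold change of Siglec-XII against Empty vector (lower panel) on the vertical axis, black lines for group medians and a dashed line for the median of all tested entries, 0.07. The 13 mitochondrially encoded subunits lie above the nuclear ones in level and below 0 in fold change, and the nuclear medians lie between -0.02 and 0.12.

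In complex I, the NADH dehydrogenase, the named nuclear core subunits, which form the arm that takes electrons from NADH, had log2 fold changes between -0.06 and 0.08. NDUFV1, which binds NADH, was at 7.13 ± 0.04 and 7.21 ± 0.09 (SD, n = 4), NDUFV2 at 6.99 ± 0.09 and 6.93 ± 0.04, and NDUFS8 at 7.61 ± 0.07 and 7.63 ± 0.09. NDUFS1, NDUFS3 and NDUFS7 had log2 fold changes of 0.04, -0.06 and 0.08, and the 6 core subunits named here had adjusted p-values of 0.452 or more. The highest nuclear subunit of complex I by level was NDUFS5, an accessory subunit, and the lowest was an entry of NDUFA6, at 2.77. NDUFA6 is split over 5 entries, with levels up to 5.11, so that value is not the level of the gene. Of the complex I subunits on a single entry, NDUFV3 was the lowest, at 3.49.

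NDUFC2, an accessory subunit of the membrane arm (ENSG00000151366, chr11:77779343-77790908 on the minus strand of GRCh37), had the lowest adjusted p of the members, 0.136. It stood at 503, 471, 509 and 500.4 TPM with the Empty vector and at 457, 436, 429 and 459 TPM with Siglec-XII, so the groups did not overlap, with a log2 fold change of -0.16 ± 0.04 (SE). The readthrough transcript NDUFC2-KCTD14, which starts in NDUFC2 and runs into the next gene, went the other way, at 5.22, 3.95, 0.446 and 5.27 TPM with the Empty vector and 6.36, 12.7, 13.3 and 7.64 TPM with Siglec-XII. Its log2 fold change was 1.37 ± 0.45 (SE; limma adjusted p = 0.196), the largest of all members, and the groups did not overlap. Of the stretches of 31 bases in the readthrough transcript, 94.6% also occur in NDUFC2 or KCTD14, 62.0% in NDUFC2. The division of reads among these entries is therefore uncertain, and so is the level of the readthrough transcript. KCTD14 itself averaged 4.92 TPM with the Empty vector and 6.45 TPM with Siglec-XII, with overlapping groups. NDUFC2 and the readthrough transcript were also summed, an alternative added after the data were seen. The log2 difference of the sum was -0.13, the groups still did not overlap and the limma adjusted p was 0.159.

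NDUFS4 and NDUFS5, also accessory subunits of complex I, were lower at an unadjusted p under 0.05. NDUFS4, needed late in assembly, was at 6.47, 6.59, 6.54 and 6.66 with the Empty vector and 6.48, 6.27, 6.37 and 6.49 with Siglec-XII (log2 fold change -0.17 ± 0.06, SE). NDUFS5 was at 9.03, 9.01, 9.13 and 9.20 and at 9.02, 8.88, 8.96 and 8.93 (-0.14 ± 0.05, SE). NDUFA8 had a positive fold change, at 5.90, 6.20, 6.12 and 6.26 and at 6.24, 6.34, 6.27 and 6.34 (0.18 ± 0.07, SE). The groups overlapped for all 3, and their adjusted p-values were 0.246, 0.232 and 0.282.

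**Figure D4:**
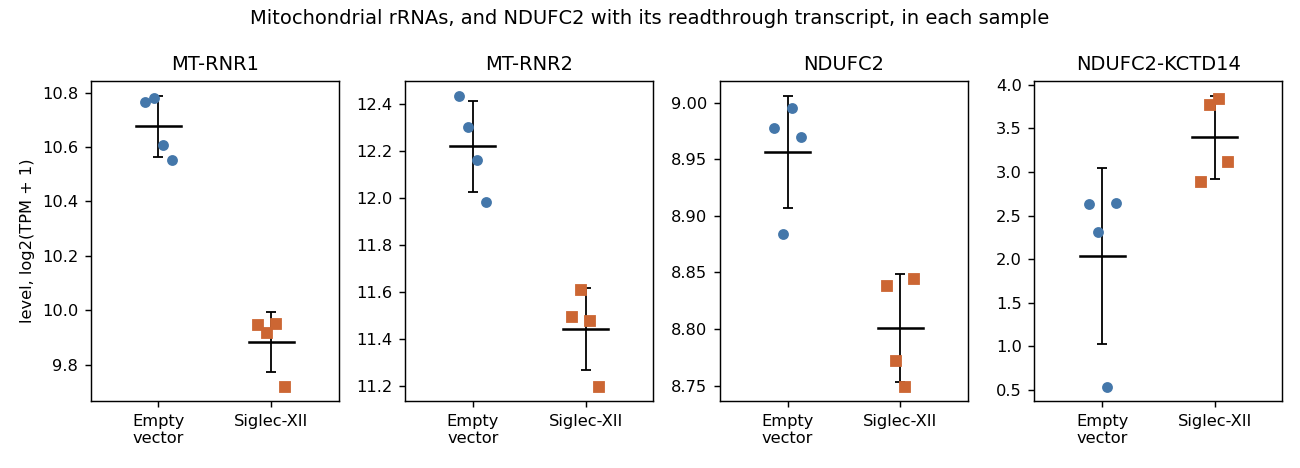
Level in log2(TPM + 1) (vertical axes, each with its own range that does not start at 0) of MT-RNR1, MT-RNR2, NDUFC2 and NDUFC2-KCTD14, with circles for Empty vector and squares for Siglec-XII samples and a line and bar for the mean ± SD. The groups do not overlap in any panel, with Siglec-XII lower for MT-RNR1, MT-RNR2 and NDUFC2 and higher for NDUFC2-KCTD14, and the limma adjusted p was under 0.05 for the 2 rRNAs only.

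Complex II, succinate dehydrogenase, links the chain to the citric acid cycle. SDHA, which holds the flavin, was at 5.32, 5.30, 5.19 and 5.27 with the Empty vector and at 5.37, 5.39, 5.33 and 5.57 with Siglec-XII. The 2 groups did not overlap, but the lowest Siglec-XII sample was within 0.01 of the highest Empty vector sample, and the log2 fold change was 0.15 ± 0.06 (SE; limma adjusted p = 0.299). SDHB, the iron-sulfur subunit, was the highest of the 4, at 7.62 ± 0.17 and 7.71 ± 0.02 (SD, n = 4). The membrane anchors SDHC and SDHD had log2 fold changes of 0.14 ± 0.10 and 0.02 ± 0.08 (SE). Of the 31-base stretches of SDHA, 79.98% also occur in other genes' transcripts, so its level is uncertain.

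In complex III, the cytochrome bc1 complex, small subunits gave values on both sides. UQCRB, which binds ubiquinone, was at 9.05, 8.72, 8.78 and 8.89 with the Empty vector and at 8.71, 8.59, 8.71 and 8.45 with Siglec-XII. The groups did not overlap, by less than 0.01, and the log2 fold change was -0.24 ± 0.08 (SE; limma adjusted p = 0.209). UQCR11 was at 5.23, 5.32, 5.45 and 5.76 and at 5.67, 5.68, 5.70 and 5.91, with a log2 fold change of 0.30 ± 0.11 (SE; limma adjusted p = 0.232), and Empty vector 4 lay within the Siglec-XII range. The core proteins UQCRC1 and UQCRC2 and the Rieske iron-sulfur protein UQCRFS1 had log2 fold changes of 0.12, 0.09 and -0.02, with adjusted p-values of 0.422 or more. UQCRH was the highest nuclear subunit of the complex by level, at 9.10 ± 0.07 and 9.02 ± 0.06 (SD, n = 4), and UQCRFS1 the lowest of those tested.

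In complex IV, cytochrome c oxidase, no nuclear subunit reached an unadjusted p under 0.05. Several of its subunits exist in alternative forms, which differed widely in level. COX4I1 was at 8.99 ± 0.09 and 8.97 ± 0.08 (SD, n = 4) and COX4I2, the form associated with lung and low oxygen, was listed at 0 in every sample. COX6A1 was at 9.54 ± 0.07 and 9.51 ± 0.04, the highest nuclear subunit of the complex, and the heart and muscle form COX6A2 was listed at 0. COX6B1, COX7A2, COX7B and COX8A were at means between 7.59 and 8.68, and the testis or muscle forms COX6B2, COX7A1, COX7B2 and COX8C stayed at or below 1.07 in every sample. COX7A2L, a relative of COX7A2 counted here with the assembly factors, was at 7.23 ± 0.08 and 7.12 ± 0.07 (SD, n = 4). NDUFA4, counted here with complex IV, was at 6.76 ± 0.17 and 6.77 ± 0.13, and its hypoxia-associated relative NDUFA4L2 at 1.22, 0.82, 0.47 and 0.75 with the Empty vector and 0.53, 0.59, 0.16 and 0.00 with Siglec-XII, below the filter and with overlapping groups. UQCRHL, the relative of UQCRH in complex III, likewise did not pass 0.51 in any sample.

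In complex V, ATP5F1B, the catalytic beta subunit, was the highest nuclear subunit of the 5 complexes, at 9.48, 9.58, 9.57 and 9.56 with the Empty vector and at 9.62, 9.66, 9.70 and 9.84 with Siglec-XII. The groups did not overlap, and the log2 fold change was 0.15 ± 0.05 (SE; limma adjusted p = 0.210). Its partner, the alpha subunit ATP5F1A, was at 8.01 ± 0.13 and 8.06 ± 0.07 (SD, n = 4). The genes ATP5MC1, ATP5MC2 and ATP5MC3, which encode the same mature ring subunit, had levels of 7.77, 7.66 and 8.37 with Siglec-XII and log2 fold changes between 0.00 and 0.02. ATP5F1D had the lowest level of the tested subunits, at 6.26 ± 0.12 and 6.32 ± 0.10 (SD, n = 4).

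Among the members that are no subunits, 10 of 10 assembly factors were tested and 4 had an unadjusted p under 0.05, 2 higher and 2 lower, beside 13.9% of all entries higher and 2.61% lower. COX15 and COX11, which act in heme A synthesis and in copper delivery to cytochrome c oxidase, had log2 fold changes of 0.23 ± 0.07 and 0.18 ± 0.05 (SE). COX17, a copper chaperone of the same enzyme, had -0.18 ± 0.08, and COX20, which acts on the newly made COX2 protein, had -0.11 ± 0.04 with no overlap between the groups. Of the 31-base stretches of COX20, 97.0% occur in other transcripts, mostly of HNRNPU, so that value is uncertain. ATP5IF1, the inhibitor of the ATP synthase in reverse, was at 5.71, 5.63, 5.78 and 5.75 with the Empty vector and 5.67, 5.57, 5.58 and 5.56 with Siglec-XII (log2 fold change -0.13 ± 0.05, SE; limma adjusted p = 0.259), with the same values on both of its entries.

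**Figure D5:**
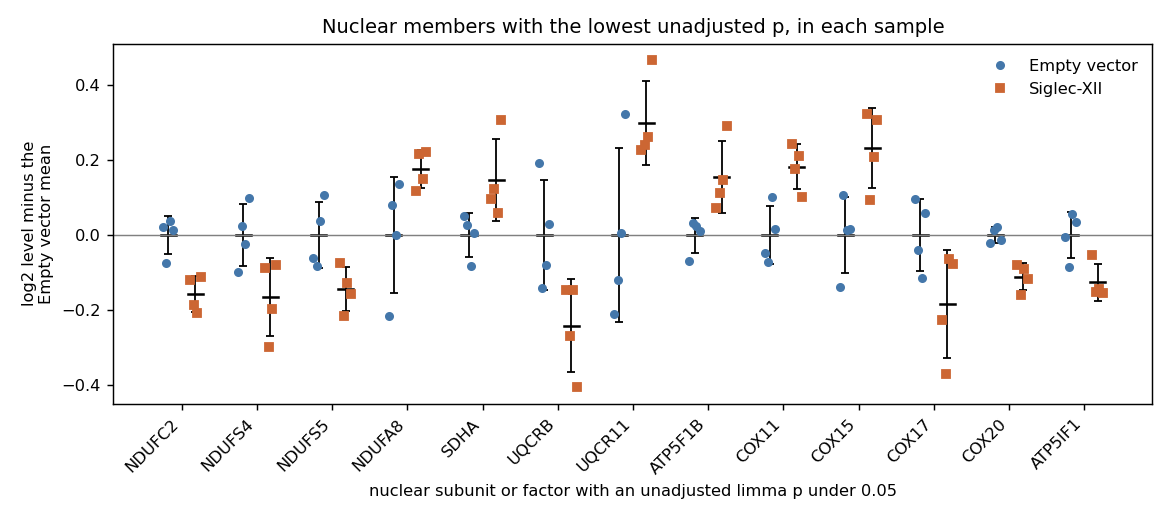
Log2 level minus the mean of the Empty vector samples (vertical axis) for the nuclear members with an unadjusted limma p under 0.05 other than the readthrough transcript, which were chosen by that p, with circles for Empty vector and squares for Siglec-XII samples and a line and bar for the mean ± SD. Of the 13 genes, the groups are separated for NDUFC2, SDHA, UQCRB, ATP5F1B and COX20 only, and the adjusted p-values lie between 0.136 and 0.299.

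The genes that make, read and assemble the chain were described from lists outside the members, and apart from the rRNAs none of their genes had a limma adjusted p under 0.05. Of 21 tested entries for transcription and upkeep of mitochondrial DNA, 2 were higher and 1 lower at an unadjusted p under 0.05, among them the helicase TWNK (log2 fold change 0.29 ± 0.07, SE) and the nuclease MGME1 (0.17 ± 0.05). Of 18 for mitochondrial RNA processing, 2 were higher and 1 lower, among them TBRG4 (0.20 ± 0.06) and FASTKD5 (0.19 ± 0.05), and SLIRP, which stabilises mitochondrial mRNAs, had -0.18 ± 0.06. Of 45 for further assembly factors, 5 were higher and 1 lower, with SDHAF3 of complex II at -0.52 ± 0.11 (limma adjusted p = 0.0913) and NUBPL of complex I at 0.36 ± 0.09. Of 16 for cytochrome c and coenzyme Q, 2 were higher and 1 lower, with COQ8A at 0.25 ± 0.08 and COQ2 at -0.24 ± 0.06. That list also holds CYC1, a subunit of complex III that the symbol rule missed, at 0.12 ± 0.10 (limma adjusted p = 0.597). The values of complex III given above are without it. Of 13 regulators of nuclear respiratory genes, 4 were higher and 0 lower. Their median log2 fold change was 0.15, and among the 4 the largest were SP1 (0.19 ± 0.05) and MYC (0.18 ± 0.05), while NRF1 had the largest of the list, 0.25 ± 0.12, above that limit. Beside these counts, 13.9% of all tested entries were higher and 2.61% lower at the same limit, and the medians of the other 4 lists lay between 0.00 and 0.04.

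Transcript length differed between the subunits and other genes, and fold changes varied with it over the whole table. The tested nuclear subunits had a median length of 758 nt, against 3300 nt for tested protein-coding genes, and 59.7% against 6.23% were under 1000 nt. Protein-coding genes had a median log2 fold change of -0.09 under 500 nt, 0.01 from 500 to 1000 nt, 0.04 from 1000 to 2000 nt, 0.07 from 2000 to 4000 nt and 0.10 above that. Nuclear subunits had -0.04, -0.02, 0.09, -0.04 and 0.01 over the same ranges, from 10, 36, 15, 8 and 8 entries. With the length trend removed, the median was -0.04 over the nuclear members and 0.00 over all entries, against -0.02 and 0.07 as deposited.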

How the data were processed

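Caco-2 libraries were analysed from the table deposited by the authors, whose values are log2(TPM + 1). Per the labels and methods, reads were quantified with kallisto (0.45.0 in the submitters' processing notes, another version in the methods) on hg19, so values are relative within each sample and short transcripts and shared sequence add error. No counts were analysed, so the depth behind the values is unknown. Groups were taken from the sample titles. Entries with at least 1 TPM in at least 4 samples were tested by limma 3.58.1 under R 4.3.3 (lmFit, eBayes with trend, two-sided, Benjamini-Hochberg over all 15590), tested on simulated data. The 31-base sharing, lengths and mitochondrial positions came from GENCODE canonical transcripts on GRCh37, and 14 of the 131 members had no ID there. Among them, 9 symbols stood on more than 1 entry, some with identical values. The members and lists were chosen with earlier results of these data known. Named were the 13 mitochondrially encoded genes, up to 8 rises and 8 falls with an unadjusted p under 0.05, core subunits, alternative forms, the extremes of each complex, ATP5IF1 and the 2 largest changes of each outside list, and 1 item under this rule is not reported here. Over all tested entries, same-numbered samples did not move together (correlation of their deviations -0.07 to 0.06). In this module, however, the nuclear subunit share of TPM rose from number 1 to number 4 in both groups. It was 1.56%, 1.60%, 1.65% and 1.79% with the Empty vector and 1.58%, 1.59%, 1.61% and 1.71% with Siglec-XII. With the replicate block the SE of MT-RNR2 went from 0.11 to 0.06. Whether the numbers mark shared cultures or batches is not stated and was not tested. Alternatives were a pseudocount of 0.1, no filter, a minimum mean of 5 TPM, equal upper quartiles, quantile normalization, mitochondrially encoded entries left out, protein-coding entries only, the length trend removed, no variance trend, array weights, the replicate block, each sample left out and, added after the data were seen, summed entries. Figures were drawn with matplotlib 3.10.9.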

Additional observations from a re-analysis of the deposited data

Results flagged for a closer look

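Of 118 groups of 4 samples examined, for the named genes, 6 held a sample that stood apart from the other 3, its gap to the nearest of them divided by the group's range, being above Dixon's critical value. Chance flags about 1 group in 20. NDUFC2-KCTD14 was at 0.53 on the log2 scale in Empty vector 3 and at 2.31 to 2.65 in the other Empty vector samples. UQCR11 was at 5.91 in Siglec-XII 4 and at 5.67 to 5.70 in the others of its group. ATP5IF1 was at 5.67 in Siglec-XII 1, against 5.56 to 5.58. COX6A1 was at 9.63 in Empty vector 4, against 9.49 to 9.51, and COX6B1 at 8.43 in Empty vector 1, against 8.59 to 8.61. MT-RNR1 was at 9.72 in Siglec-XII 4, against 9.92 to 9.95, and without that sample its log2 fold change was -0.74.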

How the results depend on the processing

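No member passed a limma adjusted p under 0.05 under any of the 21 alternatives. The 16 members with an unadjusted p under 0.05 became 26 with equal upper quartiles, 7 without a variance trend, 19 with the replicate block and 11 to 17 when 1 sample was left out, and the cause was not tested. The median log2 fold change of complex I subunits became -0.084 with equal upper quartiles and that of complex III -0.017 with the length trend removed, in which 8 of its entries remained. Leaving out 1 sample gave medians of -0.28 to -0.06 for the mitochondrially encoded, -0.05 to 0.01 for the nuclear members, and -0.05 to 0.00, 0.04 to 0.14, 0.05 to 0.13, -0.05 to 0.01 and -0.05 to 0.03 for nuclear complexes I to V. The difference in the mitochondrially encoded share of TPM, -0.77 percentage points, became -1.27 to -0.24, with -0.24 without Empty vector 1 and -0.26 without Siglec-XII 4. MT-RNR2 had an adjusted p of 0.118 without a filter and 0.0506 without a variance trend, and of 0.0608, 0.0501 and 0.0506 without Empty vector 3, Siglec-XII 1 or Siglec-XII 3. Scaling moved the median of all entries from 0.07 to 0.01 with quantile normalization or equal upper quartiles. Of 729 values of named genes under alternatives, counting only the lowest and the highest value with 1 sample left out, 48 changed sign, all in genes that did not pass the threshold. The depth of the libraries is unknown, so what it limits could not be stated.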
